A study of Mus musculus with 18 samples.

Results

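The comparison set 6 libraries of mouse colon labelled IBC, for isobavachalcone, against 6 labelled TNBS, for trinitrobenzene sulfonic acid, and covered every gene expressed in them. These 12 libraries are all that carry either label among the 18 of the series. The other 6 are labelled vector, are called control in the library names, and are given beside the 2 groups as a reference. RNA with a poly(A) tail was sequenced from colon tissue of *Mus musculus* in every group, and the labels give no strain, genotype, age, sex, dose, route or time. They do not say whether the mice of the IBC group also received TNBS, although the series title concerns treatment of colitis caused by TNBS. They do not say either whether each library came from a separate animal, so p-values measure the spread between libraries, which may be technical.

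TNBS is a hapten that binds to proteins of the colon wall. Given by enema, usually in ethanol to breach the epithelium, it provokes an inflammation of the whole wall with neutrophils, macrophages and T cells, and it is a common model of Crohn's disease. Isobavachalcone is a prenylated chalcone of the plant Psoralea corylifolia, and the design text of the series asks how components of a herbal source act on GPR84 in inflammatory bowel disease. GPR84 is a receptor for medium-chain fatty acids on neutrophils and macrophages that signals through Gi proteins, and PI3K and AKT are kinases that such receptors can activate.

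The 2 groups had nearly the same depth, with totals of 62.2 to 71.8 in units of 1e6 counts for TNBS (mean 65.2 ± 3.55, SD, n = 6) and 64.0 to 78.9 for IBC (67.3 ± 5.74, SD, n = 6). Markers of colon epithelium were present in all 12 libraries. On the FPKM scale, which is per transcript length, the adhesion molecule Epcam had a level of 563 to 753, the mucin Muc2 of 51.6 to 1083 and the homeobox factor Cdx2 of 18.003 to 148. The squamous keratin Krt5 was at most 0.260 FPKM and the muscle kinase Ckm was 1.31 to 10.3 FPKM. Markers of other tissue were not all low. The elastase gene Cela1, taken as a pancreatic marker, was at 6.10 to 131 FPKM (highest in IBC 3). The fat marker Adipoq was at 0.0451 to 68.0 FPKM (highest in TNBS 2). Only 4 of 12 listed pancreatic acinar genes passed the filter on low counts. Their summed level was 18.5 to 383 CPM (counts per 1e6 counts of scaled totals) in TNBS and 23.2 to 311 CPM in IBC. In vector it reached 11417 CPM. Whether the pieces held pancreas was not tested. The libraries fell into 2 sets that crossed the groups. Hoxb13, which marks the rearmost part of the gut and body, was at 10 CPM or more in TNBS 1, 4, 5 and 6 and in IBC 1, 3, 4 and 6. It was below that in TNBS 2 and 3 and in IBC 2 and 5. Component 1 of a principal component analysis of the 12 libraries held 39.1% of the variance and separated these sets, not the groups. TNBS 5 stood apart on component 2, which held 13.7%. Mitochondrial genes took 9.20% of its counts, against 4.94% to 6.79% in the other TNBS libraries and 4.48% to 7.51% in IBC. Differences within both sets are therefore given below as those of the 4 and 4 libraries high in Hoxb13 and of the 2 and 2 low in it. Many of the values that TNBS 5 moved by over 1.5 times are given with and without it. A value given without such a figure may still rest on TNBS 5.

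**Figure D1:**
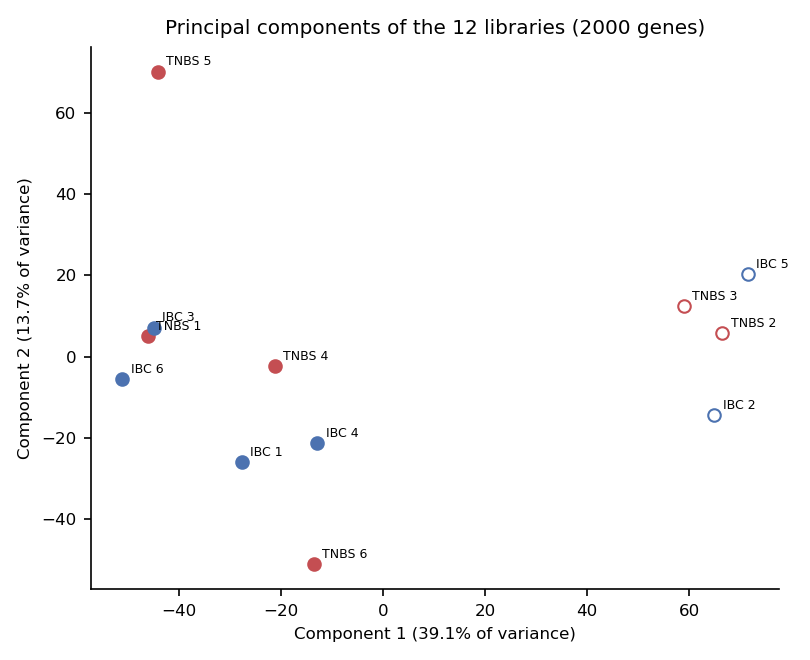
Scores of the 12 IBC (blue) and TNBS (red) libraries on components 1 and 2 of the 2000 most variable genes (log2 CPM), with filled points for libraries high in Hoxb13 and open points for those low in it. The 4 open points lie together on the right with both colours among them, and TNBS 5 is the highest point on component 2.

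No gene passed the test between IBC and TNBS. edgeR's quasi-likelihood test called 0 of 20855 genes (0%) at an adjusted p under 0.05, and the smallest adjusted p (Benjamini-Hochberg over all genes) was 0.925. An unadjusted p under 0.05 was reached by 820 genes, 3.93% of those tested, where uniform p-values would give 1043. Of these, 356 (1.71%) were higher in IBC and 464 (2.22%) lower. The count was 462 without IBC 1, 486 without IBC 6, 1694 without TNBS 6 and 2322 without IBC 5. DESeq2 called 2 genes at an adjusted p under 0.05, Hspa1a and Disp3, while limma on log2 FPKM and limma voom with library weights called 0. On the log2(FPKM + 0.1) scale the median of all genes was shifted to 0.114 and 67.1% of them were higher in IBC, so counts of higher members on that scale stand beside this shift. By edgeR the middle 50% of log2 fold changes lay between -0.20 and 0.22, the median was 0.00, and 50.3% of the genes were higher in IBC. No difference of group means along the first 5 components passed an exact permutation test over all assignments of the 12 libraries to groups of 6 (two-sided, adjusted p = 0.617 to 0.989 over the 5 components). The spread within the groups also differed. The SD of log2 CPM was larger in TNBS than in IBC for 10992 of 15755 genes with a mean of at least 1 CPM (69.8%), with a median SD of 0.473 in TNBS and 0.351 in IBC. This was not tested, and TNBS 5 is among the TNBS libraries.

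Every gene described from here on therefore had an adjusted p of at least 0.925 by edgeR. Whether its unadjusted p was under 0.05 is given only to place it among the 3.93%. That share belongs to the main fit, and in either direction other fits had other counts over all genes. These were 1115 of 20855 with the Hoxb13 set as a covariate, 1177 of 20241 in the high set alone and 406 of 20041 in the low set alone. They were 1206 of 21172 without TNBS 1, 1694 of 21122 without TNBS 6 and 2322 of 21170 without IBC 5. Fold changes are log2 values of IBC minus TNBS with their standard error. A difference of log2 CPM within a set is a plain difference of means. Levels in CPM are given as lowest, median and highest over the 6 libraries of a group. In bulk tissue, fewer cells of a type and less RNA per cell cannot be told apart.

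Heat shock chaperones had the largest score difference, relative to the spread between libraries, of the 51 gene lists examined. These proteins fold new and damaged proteins, and their genes are the classical targets of heat shock factor HSF1, which binds inverted repeats of the letters GAA in their promoters. All 18 listed genes were lower in IBC, of which 1 was higher on the FPKM scale, and 9 of 18 (50%) had an unadjusted p under 0.05, all lower, beside a background of 2.22% for lower genes. The median log2 fold change of the list was -0.53, beside 0.00 over all genes. The lists were chosen with earlier results of these data known, and members of a list can vary together. Their shares are therefore described beside those of all genes and were not tested. The list score, which is the mean of centred log2 CPM over its members, ran from -0.19 to 0.92 in TNBS and from -0.67 to 0.11 in IBC. All 6 IBC libraries lay below the TNBS median, and the difference of -0.62 was 1.57 times the pooled SD between libraries. Within the Hoxb13 sets it was -0.66 (high) and -0.53 (low).

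Among the members, Hspa1a encodes the inducible HSP70, a chaperone strongly induced by heat and other stress. It lies in the table on chromosome 17 from 35188166 to 35191132. Its level in TNBS was 17.0, 43.7 and 332 CPM at the lowest, the median and the highest, and in IBC 8.36, 12.96 and 19.5 CPM, while the vector median was 63.0 CPM. TNBS 1 (332 CPM) and TNBS 6 (131 CPM) were the high libraries, and IBC 4 alone lay above the lowest TNBS library. The log2 fold change was -2.89 ± 0.66 (adjusted p = 0.925 by edgeR), and it was between -3.11 and -1.96 with any single library left out. DESeq2 gave -2.89 with an adjusted p of 0.0124.

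Its neighbour Hspa1b, a nearly identical gene on chromosome 17 from 35175412 to 35178214, encodes the same protein, so that reads of the pair can be split between the 2. It had 27.6, 73.9 and 572 CPM in TNBS and 12.3, 23.7 and 38.3 CPM in IBC (log2 fold change -2.82 ± 0.69). TNBS 1 and TNBS 6 were again the highest.

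Dnajb1, the HSP40 partner that delivers substrates to HSP70, was the list's only gene whose groups did not overlap. Its levels were 55.1, 70.1 and 127 CPM in TNBS and 44.8, 48.4 and 55.0 CPM in IBC (-0.65 ± 0.17). The gap between the groups was small, with IBC 4 next to TNBS 4. Dnaja1, another HSP40, had 167, 275 and 389 CPM in TNBS and 119, 147 and 230.1 CPM in IBC (-0.76 ± 0.23), and all 6 IBC libraries lay below the TNBS median.

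The remaining 5 members at an unadjusted p under 0.05 were picked with their values in view, since the rule for named genes takes at most 4 of a list. Hspa8, the constitutive HSC70 and the most abundant of them, had 1380.2, 1807 and 2469 CPM in TNBS and 889, 1013 and 1749 CPM in IBC (-0.67 ± 0.22). Hsph1, the nucleotide exchange factor HSP105, had 36.7, 117 and 353 CPM in TNBS and 39.8, 59.6 and 115 CPM in IBC (-1.25 ± 0.49, and -0.82 without TNBS 1). Chordc1, an HSP90 cochaperone, had 49.3, 92.9 and 127 CPM against 39.4, 44.9 and 72.9 CPM (-0.71 ± 0.25). The groups of these 3 genes overlapped, and all 6 IBC libraries lay below the TNBS median. Hsp90aa1, the inducible HSP90, differed by -0.67 ± 0.27 and Stip1, which links HSP70 to HSP90, by -0.41 ± 0.19. The count of 9 became 6 without TNBS 1 or without TNBS 6, 7 without TNBS 3 and 10 without TNBS 4, IBC 4 or IBC 5. Fitted within a Hoxb13 set alone, it was 6 of 18 in the high set and 4 of 18 in the low set. Over all genes these fits gave 1177 of 20241 and 406 of 20041 in either direction. The vector medians of these 9 genes lay above the IBC medians, at 63.0 CPM for Hspa1a, 113 CPM for Hspa1b and 75.1 CPM for Dnajb1.

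**Figure D2:**
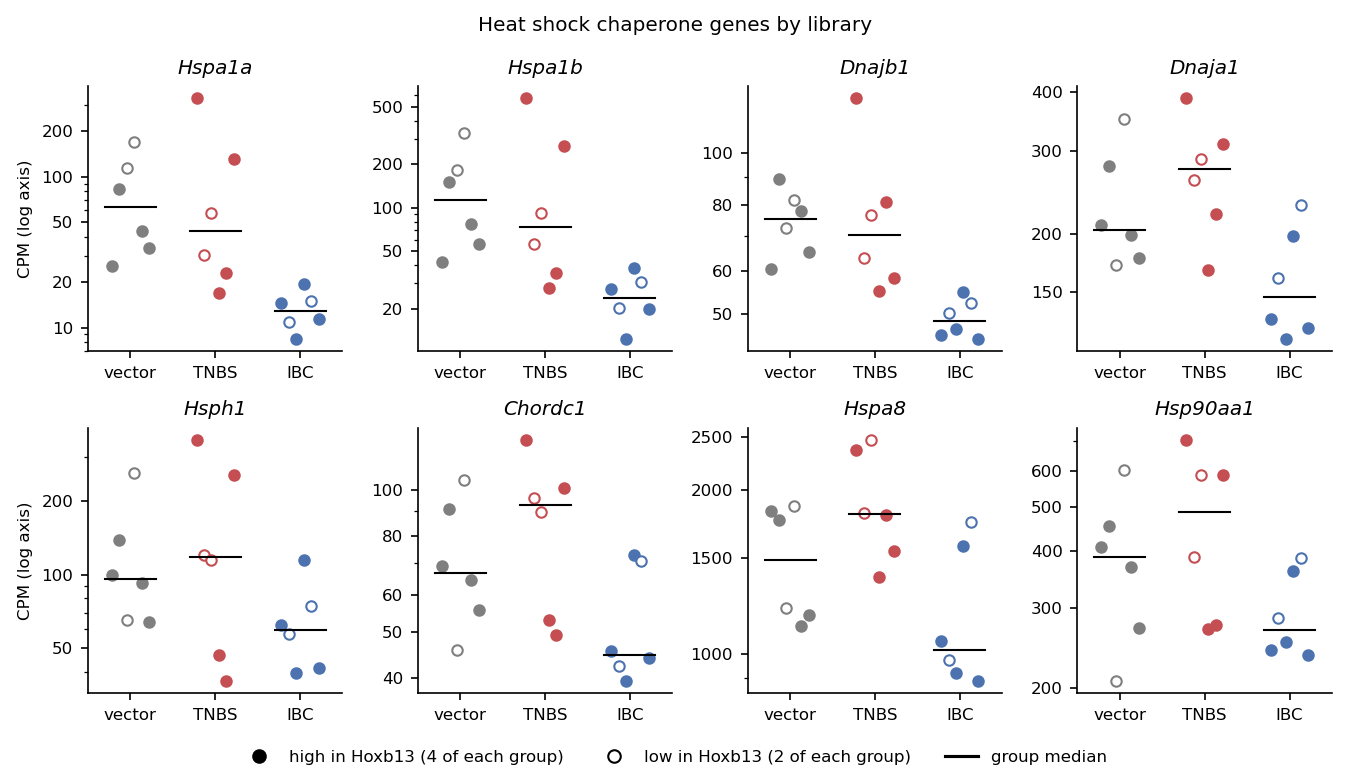
CPM on a log axis of 8 heat shock chaperone genes in each library of the vector, TNBS and IBC groups, with points for libraries, filled where Hoxb13 is high, and lines for group medians. The IBC points lie low and close together, for Hspa1a between 8.36 and 19.5 CPM, while the TNBS points of Hspa1a spread from 17.0 to 332 CPM.

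Promoters of 3 of these genes are shown because the letters known for HSF1 can be searched in them. Each stretch runs from 250 bases before the gene's start to 50 after it (RefSeq, build GRCm38.p6), on the gene's strand, 5′ to 3′. Capitals mark every match to GAANNTTC or TTCNNGAA, which are pairs of inverted units searched on both strands. The stretches are chr17:34972107-34972406 (minus strand) for Hspa1a, chr5:149636266-149636565 (minus strand) for Hsph1 and chr9:18292017-18292316 (plus strand) for Chordc1. Gene positions given elsewhere in the text follow the deposited coordinates, whose build was not stated. They differ from GRCm38.p6 and cannot be set beside these stretches.
Hspa1a: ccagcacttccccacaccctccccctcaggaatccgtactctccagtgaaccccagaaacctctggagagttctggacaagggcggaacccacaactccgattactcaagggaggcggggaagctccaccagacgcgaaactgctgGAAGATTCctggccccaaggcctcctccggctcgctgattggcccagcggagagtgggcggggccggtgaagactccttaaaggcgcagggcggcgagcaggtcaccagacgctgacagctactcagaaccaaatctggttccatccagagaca
Hsph1: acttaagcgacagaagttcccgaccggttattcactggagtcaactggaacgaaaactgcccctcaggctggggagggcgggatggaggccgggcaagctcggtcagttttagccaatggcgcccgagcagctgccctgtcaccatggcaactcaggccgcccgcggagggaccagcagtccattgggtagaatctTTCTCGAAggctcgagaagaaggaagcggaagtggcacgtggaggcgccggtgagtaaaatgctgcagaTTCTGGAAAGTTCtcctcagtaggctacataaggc
Chordc1: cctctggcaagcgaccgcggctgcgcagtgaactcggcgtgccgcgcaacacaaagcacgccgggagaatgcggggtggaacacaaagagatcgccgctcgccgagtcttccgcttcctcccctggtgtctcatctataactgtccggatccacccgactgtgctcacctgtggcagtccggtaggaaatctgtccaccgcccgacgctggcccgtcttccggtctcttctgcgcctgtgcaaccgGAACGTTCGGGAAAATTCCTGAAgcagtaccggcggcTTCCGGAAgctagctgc
Hspa1a held 1 pair, Hsph1 held 3 pairs and Chordc1 held 5, overlapping pairs included. A pair was present in 10 of the 13 listed heat shock genes that could be matched to a RefSeq promoter, and in 17.0% of all genes with one (15.1% of promoters). The longer motif of 3 alternating units, GAANNTTC followed by NNGAA on either strand, was present in 4 of these 13, among them Hsph1 and Chordc1, and in 0.662% of all genes (0.603% of promoters). The other 2 of the 4, Hspd1 and Hspe1, are head-to-head neighbours whose promoter stretches overlap, so that they share these letters. Hspa1a, Hspa1b, Dnaja1, Dnajb1 and Stip1 had no match to the longer motif in this window, and Dnajb1 and Stip1 held no pair either, so the promoters shown are ones with matches. A match is a description of the letters, and binding was not measured. Since genes of this list are classical targets of HSF1, a share above that of all genes follows from the choice of the list. It says nothing about the difference between IBC and TNBS.

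Genes of the unfolded protein response, which meets misfolded proteins in the endoplasmic reticulum, were also mostly lower. Of 20 listed genes 18 were lower in IBC (16 on the FPKM scale) and 3 had an unadjusted p under 0.05, which is 15% beside the background of 2.22% for lower genes. The score ran from -0.13 to 0.44 in TNBS and from -0.42 to 0.16 in IBC, with a difference of -0.33 that was 1.49 times the pooled SD. No IBC library lay above the TNBS median, and the difference was -0.37 in the set high in Hoxb13 and -0.24 in the other. Xbp1, the transcription factor spliced by the sensor IRE1 and also needed by secretory and plasma cells, lies on chromosome 11 from 5470659 to 5475893. Its groups did not overlap, with 322, 368 and 529 CPM in TNBS and 243, 279 and 320.3 CPM in IBC (-0.46 ± 0.14). The vector median was 307 CPM, within the range of IBC. Manf, a secreted protein of the stressed endoplasmic reticulum, had 177, 239 and 343 CPM in TNBS and 98.1, 149 and 297 CPM in IBC (-0.61 ± 0.27). Creld2, a disulfide isomerase of the same compartment, had 92.9, 105 and 146 CPM and then 45.6, 61.8 and 140.1 CPM (-0.58 ± 0.27). Both had 1 IBC library above the TNBS median. Sdf2l1, a cochaperone there, differed by -0.56 ± 0.27, and Hspa5, the chaperone BiP, picked with its values in view, by -0.50 ± 0.29. Neither reached an unadjusted p under 0.05. The count of 3 was 7 with the Hoxb13 set as a covariate, 8 in the high set alone and 0 in the low set alone. It was 8 without IBC 5, where 2322 of all 21170 genes had such a p. Without IBC 1, IBC 3 or IBC 6 it was 1. Its size thus rests on single libraries, while at least 18 of the 20 genes were lower with any library left out.

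Ribosomal proteins gave a pattern that rested on TNBS 5. All 40 listed genes of the cytosolic ribosome were lower in IBC and 7 (17.5%) had an unadjusted p under 0.05. The count of 7 varied from 0 to 32 with a single library left out. It was highest without TNBS 6, where 1694 of all 21122 genes had such a p. Without TNBS 5, 35 of 40 were lower, 0 had such a p, and the median log2 fold change went from -0.53 to -0.10. The list score was 1.63 in TNBS 5 and between -0.41 and 0.21 in the other TNBS libraries, while IBC ran from -0.42 to 0.44. Rps7 of the small subunit showed this in a single gene, with 2317 CPM in TNBS 5, 507 to 790.1 CPM in the other TNBS libraries and 504 to 747 CPM in IBC, and its fold change of -0.65 became -0.16 without TNBS 5. Rpl6, Rps18 and Rpl10 had the same order, with log2 fold changes of -0.54, -0.56 and -0.52 that became -0.14, -0.16 and -0.14 without TNBS 5. The other 3 members at such a p, Rpl4, Rpsa and Rpl7, were chosen after their values were seen and went from -0.49, -0.59 and -0.57 to -0.15, -0.17 and -0.13. In the libraries low in Hoxb13 alone, 26 of 40 ribosomal genes were higher in IBC. Many ribosomal protein genes have near-identical pseudogenes that can share their reads.

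Mitochondrial genes also depended on TNBS 5. Of the 13 mRNAs encoded by the mitochondrial genome 11 were lower in IBC and 1 had an unadjusted p under 0.05 (7.69%), and all 13 were lower without TNBS 5 with 0 at such a p. The score difference of -0.36 became -0.23. It was -0.51 in the set high in Hoxb13 and -0.06 in the other. mt-Atp8, a subunit of ATP synthase, had 817, 1082 and 3564 CPM in TNBS, the highest in TNBS 5, and 472, 854 and 1164 CPM in IBC (-0.83 ± 0.39). mt-Nd3 of complex I differed by -0.84 ± 0.40 and mt-Co3 of complex IV by -0.64 ± 0.37. Without TNBS 5 the fold changes of mt-Atp8, mt-Nd3 and mt-Co3 were -0.31, -0.23 and -0.22. Nuclear genes of oxidative phosphorylation were lower in 31 of 34 cases with 0 at an unadjusted p under 0.05. Without TNBS 5 it was 22 of 34, and in the libraries low in Hoxb13 alone 31 of 34 were higher. Ribosome biogenesis genes were lower in 21 of 22 cases, with Nop16, a nucleolar protein, at -0.42 ± 0.20 as the single gene at such a p. The score of this list differed by -0.25 over all 12 libraries and by -0.20 and -0.35 in the 2 sets. Without TNBS 3 the score differed by -0.10 and Nop16 by -0.28.

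**Figure D3:**
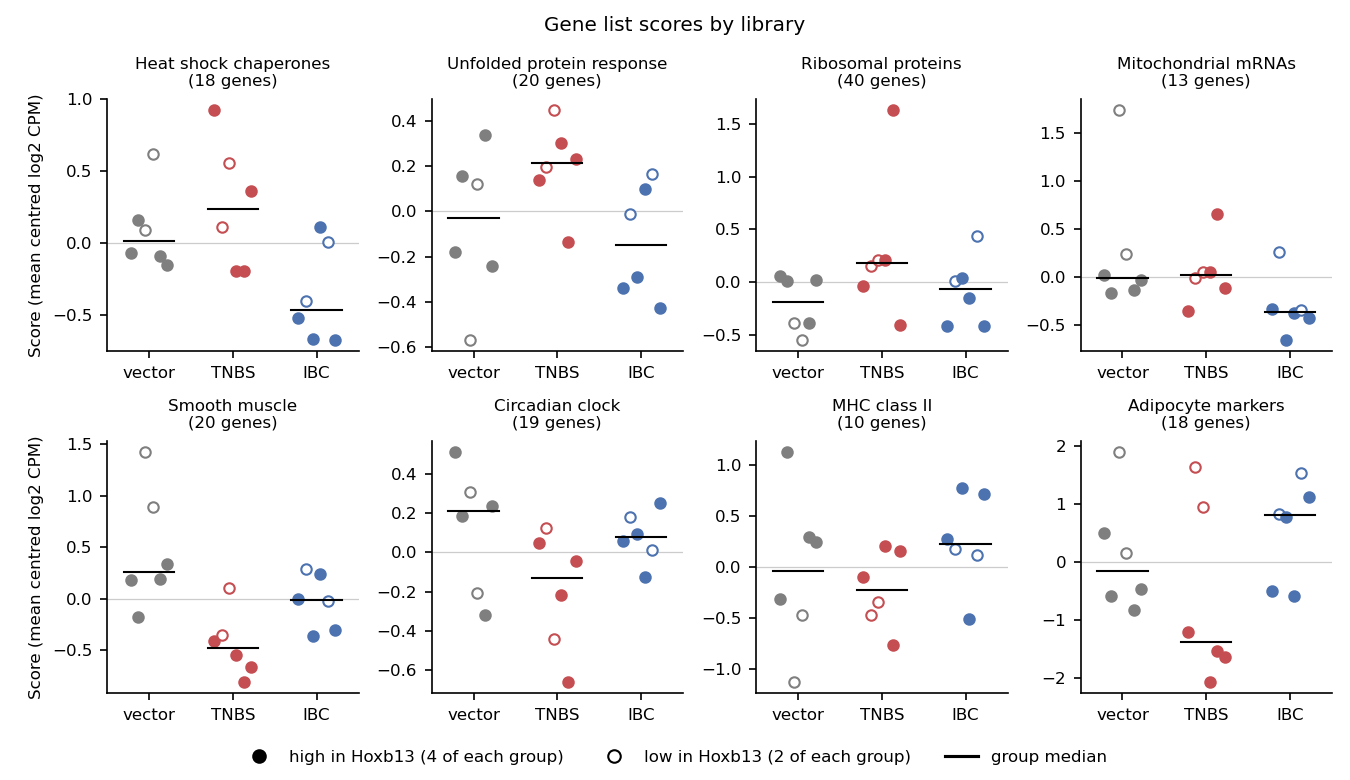
Scores of 8 gene lists (mean of centred log2 CPM over the members) in each library of the vector, TNBS and IBC groups, with points for libraries, filled where Hoxb13 is high, and lines for group medians. The heat shock and unfolded protein response scores of IBC all lie below the TNBS median, the smooth muscle and clock scores all lie above it, and TNBS 5 is the high TNBS point for ribosomal proteins at 1.63.

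Smooth muscle genes were higher in IBC. The contractile apparatus of the muscle layers was covered by 20 genes, of which 19 were higher (20 on the FPKM scale) and 1 (5%) had an unadjusted p under 0.05, beside a background of 1.71% for higher genes. The score ran from -0.81 to 0.11 in TNBS and from -0.36 to 0.29 in IBC, and all 6 IBC libraries lay above the TNBS median. The difference of 0.42 was 1.42 times the pooled SD, and it was 0.50 and 0.25 in the sets high and low in Hoxb13. The count at such a p was 7 of 20 with the Hoxb13 set as a covariate and 6 of 20 in the high set alone. Over all genes these fits gave 1115 of 20855 and 1177 of 20241. Synm, the intermediate filament protein synemin, had 14.4, 37.1 and 54.4 CPM in TNBS, 49.7, 66.9 and 84.9 CPM in IBC and a median of 107 CPM in vector (0.81 ± 0.27). Synpo2, an actin-bundling protein, had 19.3, 50.5 and 66.6 CPM in TNBS and 44.6, 68.0 and 114 CPM in IBC (0.59 ± 0.31). Smtn, smoothelin, had 45.1, 81.2 and 119.8 CPM and then 77.0, 120.3 and 156 CPM (0.54 ± 0.29). The IBC medians of these 3 genes lay between those of TNBS and vector. Cald1, caldesmon, differed by 0.62 ± 0.36, and Myh11, the smooth muscle myosin heavy chain, chosen after its values were seen, by 0.62 ± 0.38. The summed level of the list was 3676 to 7525 CPM in TNBS and 4667 to 8546 CPM in IBC. How much muscle each colon piece held was not measured.

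Fibroblast and matrix genes differed in sign between the Hoxb13 sets. Over all 12 libraries, 22 of 24 were higher, 2 (8.33%) had an unadjusted p under 0.05, and the median log2 fold change was 0.57. The score differed by 0.88 in the set high in Hoxb13 and by -0.38 in the other, and in the low set alone 17 of 24 genes were lower. Col14a1, a collagen that decorates fibrils, had 15.5, 23.1 and 42.5 CPM in TNBS and 17.6, 52.9 and 87.5 CPM in IBC (1.00 ± 0.38). Fbn1, fibrillin of elastic microfibrils, had 24.2, 38.6 and 81.7 CPM and then 28.4, 101 and 127 CPM (0.83 ± 0.39). The 2 IBC libraries below the TNBS median were in both genes among the lowest of the 12. Fn1, fibronectin, differed by 0.98 ± 0.49, and Col1a2, a chain of type I collagen, by 0.96 ± 0.52. The count of 2 was 0 without IBC 6, 7 without TNBS 1, 9 without IBC 2 or TNBS 4, and 12 without IBC 5. It was 8 in the high set alone. Counts over all genes rose as well, from 820 of 20855 to 1206 of 21172 without TNBS 1 and 2322 of 21170 without IBC 5. In the high set alone they were 1177 of 20241.

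Circadian clock genes were mostly higher in IBC. The clock is a loop in which Bmal1 and Clock activate the Per and Cry genes and the transcription factors Dbp, Tef and Nr1d2, and the products of Per, Cry and Nr1d genes repress the loop. Of 19 listed genes 14 were higher in IBC (16 on the FPKM scale) and 2 (10.5%) had an unadjusted p under 0.05. The score ran from -0.66 to 0.12 in TNBS and from -0.13 to 0.25 in IBC, all 6 IBC libraries lay above the TNBS median, and the difference of 0.28 was 1.18 times the pooled SD. It was 0.29 and 0.26 in the sets high and low in Hoxb13. Per3 had 8.77, 20.01 and 26.5 CPM in TNBS and 19.5, 33.1 and 51.1 CPM in IBC (0.90 ± 0.36). Cry2 had 7.37, 13.1 and 24.95 CPM and then 14.1, 22.4 and 25.9 CPM (0.58 ± 0.25). Nr1d2 had 44.9, 77.7 and 101 CPM and then 85.8, 96.8 and 109 CPM (0.42 ± 0.21). In Cry2 and Nr1d2 all 6 IBC libraries lay above the TNBS median, and in Per3 it was 5. Nfil3, which competes with Dbp and Tef for the same sites, lay below the TNBS median in all 6, with overlapping groups of 6.51, 16.8 and 28.7 CPM in TNBS and 5.46, 9.31 and 12.5 CPM in IBC (-0.83 ± 0.42). Chosen after their values were seen, Tef and Dbp differed by 0.58 ± 0.31 and 0.67 ± 0.41 and Bmal1 by -0.41 ± 0.26 (-0.21 without TNBS 6). The count of 2 was 0 without IBC 6, 5 without vector 4 and 6 without TNBS 1 (5 higher and 1 lower). The hour at which each colon was taken is not in the labels, and its part was not tested.

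Genes of MHC class II presentation, by which macrophages, dendritic cells and B cells show antigen to T cells, were higher in IBC in 10 of 10 cases, with 0 at an unadjusted p under 0.05. The score ran from -0.77 to 0.20 in TNBS and from -0.51 to 0.77 in IBC, with a difference of 0.48 (1.12 times the pooled SD) that was 0.44 and 0.55 in the 2 sets. Ciita, the master regulator of these genes, had 2.30, 5.06 and 15.5 CPM in TNBS and 4.04, 12.5 and 27.9 CPM in IBC (1.04 ± 0.54). H2-Ab1, the beta chain of the I-A molecule, had 22.3, 40.4 and 44.0 CPM and then 28.4, 56.0 and 66.9 CPM (0.44 ± 0.25), with the lowest TNBS value in TNBS 5. Cd74, the invariant chain, had 75.5, 301 and 332 CPM and then 208, 417 and 474 CPM (0.56 ± 0.34), again lowest in TNBS 5. H2-DMb1, which loads the peptide, differed by 0.57 ± 0.33. Without IBC 4, 5 of the 10 genes had an unadjusted p under 0.05.

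Adipocyte and complement scores differed in sign between the Hoxb13 sets. Among 18 adipocyte markers 17 were higher and 1 (5.56%) had an unadjusted p under 0.05. The score differed by 1.17 over all 12 libraries, by 1.82 in the set high in Hoxb13 and by -0.12 in the other, where 11 of 18 genes were lower. Without IBC 5, 11 of 18 were higher. The count at an unadjusted p under 0.05 was 7 of 18 with the Hoxb13 set as a covariate and 11 of 17 in the high set alone. Over all genes these fits gave 1115 of 20855 and 1177 of 20241. The summed level of these markers was 441 to 2591 CPM in TNBS and 651 to 2603 CPM in IBC, and none of them was at 0 in all libraries. Scd1, the stearoyl-CoA desaturase that makes monounsaturated fatty acids in fat and in epithelium, was higher in both sets. It had 18.3, 47.6 and 88.8 CPM in TNBS, 50.4, 171 and 526 CPM in IBC and a median of 175 CPM in vector (2.03 ± 0.61). All 6 IBC libraries lay above the TNBS median, and the differences within the sets were 1.76 and 1.33. The hormone gene Adipoq, chosen after its values were seen, had 0.0812, 3.74 and 106 CPM in TNBS and 8.32, 31.1 and 99.0 CPM in IBC, with differences of 4.04 and -0.55 in the 2 sets. Slc2a4, the insulin-regulated glucose transporter, and Lipe, hormone-sensitive lipase, differed by 0.60 ± 0.44 and 0.71 ± 0.53. Fat attached to the colon pieces was not recorded in the labels, and its part in these values was not tested.

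Complement components, which opsonise microbes and attract phagocytes, were higher in 13 of 14 cases with 0 at an unadjusted p under 0.05. Their score differed by 0.67, with 1.21 in the set high in Hoxb13 and -0.41 in the other, where 12 of the 13 genes measured were lower. In the high set alone 7 of 14 had such a p, beside 1177 of 20241 over all genes in that fit. C4b of the classical pathway differed by 0.46 ± 0.29. C3, the central component, chosen after its values were seen, had 79.9, 108 and 415 CPM in TNBS and 97.3, 193 and 347 CPM in IBC, with the highest value of all in TNBS 3. Cfd, the factor D that fat cells secrete and that the adipocyte list also holds, differed by 3.54 and -0.67 in the 2 sets.

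Myeloid and type 2 genes varied in direction. Csf1r, the growth factor receptor of macrophages, had 35.2, 41.3 and 59.3 CPM in TNBS and 31.9, 72.1 and 115 CPM in IBC (0.69 ± 0.27), and was 1 of 19 monocyte and macrophage markers (5.26%) at an unadjusted p under 0.05. Of the 19, 11 were higher. Mrc1, the mannose receptor of resident macrophages, and Adgre1, the antigen F4/80, differed by 0.77 ± 0.37 and 0.64 ± 0.34, and Ccr2, the receptor of blood monocytes, by 0.87 ± 0.46. All 4 were higher in the set high in Hoxb13 (0.91 to 1.17) and lower in the other (-0.11 to -0.53). Chil3, a chitinase-like protein of activated macrophages, went the other way. It had 0.217, 5.70 and 65.7 CPM in TNBS, 0.453, 2.91 and 8.66 CPM in IBC and a median of 0 in vector (-2.15 ± 1.02), and its difference was 0.17 and -2.49 in the 2 sets and -0.96 without TNBS 5. Reads of Chil3 can be shared with the similar gene Chil4.

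Among 10 measured eosinophil and type 2 genes 3 (30%) had an unadjusted p under 0.05. Alox15, the lipoxygenase of eosinophils and alternatively activated macrophages, had 0.390, 1.32 and 1.79 CPM in TNBS and 1.21, 4.88 and 7.72 CPM in IBC (1.9 ± 0.58). Ccr3, the eotaxin receptor of eosinophils, had 0.297, 0.731 and 0.910 CPM and then 0.372, 1.42 and 3.09 CPM (1.28 ± 0.53). Ccl11, eotaxin itself, lay below the TNBS median in all 6 IBC libraries, although the groups overlapped, with 16.3, 33.5 and 76.4 CPM in TNBS, 11.1, 13.9 and 25.8 CPM in IBC and a median of 13.3 CPM in vector (-1.29 ± 0.37). Over all 12 libraries the ligand was thus lower where its receptor was higher. In the sets high and low in Hoxb13, Ccl11 differed by -1.33 and -0.66 and Ccr3 by 1.58 and 0.18. Ccr3 hardly differed in the low set, with 19 and 61 counts in TNBS 2 and 3 and 23 and 69 in IBC 2 and 5. Siglecf, a surface marker of eosinophils, differed by 0.50 ± 0.45, with 1.08 and -0.93 in the 2 sets. The score of the list also had opposite signs in the sets (0.75 and -0.19).

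Lymphocyte lists held no gene that was higher at an unadjusted p under 0.05. T and cytotoxic cell markers had positive fold changes in 17 of 20 cases and B cell and follicle genes in 15 of 16, with score differences of 0.22 and 0.60. The counts at such a p were 0 of 20 and 1 of 16 (6.25%), the latter a lower gene. Plasma cell genes had negative fold changes in 8 of 12 cases, with a median of -0.17, a score difference of 0.03 and 1 lower gene at such a p (8.33%). Cd22, an inhibitory receptor of B cells, had 1.25, 4.48 and 11.6 CPM in TNBS and 2.53, 11.4 and 21.3 CPM in IBC (1.01 ± 0.77). Cxcl13, the chemokine that draws B cells into follicles, was the exception, with 10.2, 29.5 and 129 CPM in TNBS and 15.7, 19.1 and 25.1 CPM in IBC (-1.12 ± 0.53), and it was lower in all 6 IBC libraries than the TNBS median. Without TNBS 5 its fold change was -0.37.

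Neutrophil markers and inflammatory cytokines had no common direction. Of 17 neutrophil genes 12 were lower and 1 (5.88%) had an unadjusted p under 0.05, but the score differed by 0.39 in the set high in Hoxb13 and by -1.56 in the other. Over all 12 libraries the difference was -0.26, and without TNBS 5, whose score was 3.50, it was 0.24. S100a8 and S100a9, the subunits of calprotectin, show this. S100a9 had 0.838, 3.42 and 118 CPM in TNBS and 0.437, 4.90 and 25.4 CPM in IBC, and its fold change of -1.45 ± 1.06 became 0.98 without TNBS 5. S100a8 had 0.155, 1.28 and 80.9 CPM and then 0.129, 1.75 and 9.20 CPM, and -2.43 ± 1.17 became 0.10. Il1r2, the decoy receptor of interleukin 1, was the gene at such a p, with 0.838, 3.04 and 15.4 CPM in TNBS and 0.834, 2.06 and 3.27 CPM in IBC (-1.25 ± 0.57), and its fold change became -0.40 without TNBS 5. Lcn2, a lipocalin of neutrophils and inflamed epithelium, differed by -1.12 ± 0.65 and by -0.33 without TNBS 5, while its medians were 4.11 CPM in TNBS and 5.33 CPM in IBC.

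The 18 cytokines and chemokines measured were higher in 8 cases and lower in 10, and their score differed by -0.08 (0.50 and -1.24 in the 2 sets). Il1b had 2.99, 8.46 and 24.7 CPM in TNBS and 3.33, 8.49 and 32.4 CPM in IBC (0.25 ± 0.63, and 0.65 without TNBS 5), and the medians were nearly equal. Tnf had 1.09, 2.82 and 7.52 CPM and then 0.690, 2.17 and 3.63 CPM (-0.62 ± 0.50). Cxcl1, which attracts neutrophils, had 0.760, 2.92 and 6.83 CPM and then 0.575, 1.27 and 7.02 CPM (-0.56 ± 0.59). Il6 was at most 1.44 CPM in any of the 12 libraries, and its fold change of -0.20 ± 1.04 became 0.32 without TNBS 5. Ccl2, which attracts monocytes, was the list's only gene at an unadjusted p under 0.05 (5.56%), with 2.05, 5.01 and 20.3 CPM in TNBS and 1.75, 2.96 and 6.44 CPM in IBC (-1.17 ± 0.49). Its relative Ccl7 differed by -1.07 ± 0.52. Without TNBS 5 they differed by -0.68 and -0.48, and Cxcl1 by -0.20. Without TNBS 3, Tnf differed by -0.23. The groups of all of these overlapped, and their IBC medians stayed above the vector medians, which were 1.70 CPM for Il1b, 0.708 CPM for Tnf, 0.323 CPM for Cxcl1 and 1.07 CPM for Ccl2.

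NF-kB and Toll-like receptor genes were higher in 11 of 22 cases, with a score difference of -0.03. Bcl3, a nuclear partner of NF-kB p50 and p52, was the gene at an unadjusted p under 0.05 (4.55%). It had 42.7, 64.7 and 90.8 CPM in TNBS, 29.0, 39.3 and 58.5 CPM in IBC and a median of 41.7 CPM in vector (-0.69 ± 0.24), and all 6 IBC libraries lay below the TNBS median although the groups overlapped. Cebpd, a transcription factor of the acute phase and of glucocorticoid response, had 33.0, 75.8 and 198 CPM in TNBS and 23.6, 40.3 and 68.6 CPM in IBC (-1.19 ± 0.38), and was 1 of 15 glucocorticoid response genes (6.67%) at such a p. Differences of both held in the 2 sets (-0.48 and -1.05 for Bcl3, -0.96 and -1.27 for Cebpd).

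The genes of the series title were read next. Gpr84 was barely expressed, with 0, 0.201 and 1.30 CPM in TNBS, 0, 0.244 and 0.402 CPM in IBC and a median of 0 in vector (-1.03 ± 1.09, and -0.31 without TNBS 3), so its groups could not be told apart at this level. Among 33 genes of GPR84, PI3K and AKT signalling 26 were higher and 7 lower, and 2 (6.06%) had an unadjusted p under 0.05. The score differed by 0.20, with 0.30 and 0.01 in the 2 sets. The 2 genes were Foxo3 and Akt1. Foxo3, a transcription factor that AKT holds in the cytoplasm by phosphorylation, had 26.3, 46.98 and 68.4 CPM in TNBS, 56.6, 78.9 and 92.5 CPM in IBC and a median of 76.7 CPM in vector (0.67 ± 0.20). All 6 IBC libraries lay above the TNBS median, and the difference was 0.81 and 0.57 in the sets. Akt1, the kinase itself, had 215, 247 and 365 CPM in TNBS, 210.2, 215 and 227 CPM in IBC and 219 CPM as the vector median (-0.31 ± 0.14), and all 6 IBC libraries lay below the TNBS median. Without TNBS 5, the highest library, Akt1 differed by -0.19. Pik3cg, the catalytic subunit that Gi-coupled receptors activate, had 4.46, 6.53 and 14.6 CPM and then 4.29, 13.9 and 18.6 CPM (0.57 ± 0.39). Its regulatory subunit Pik3r6 differed by 0.53 ± 0.26 and Pik3cd, the subunit of lymphocytes, by 0.53 ± 0.29 (0.35 without IBC 6). These are mRNA levels, and phosphorylation of AKT or its targets was not measured.

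Chalcones are known to react with KEAP1 and so can activate NRF2, the factor that induces antioxidant genes. Of 21 NRF2 target genes 15 were higher in IBC and 2 (9.52%) had an unadjusted p under 0.05. The score differed by 0.15, with 0.00 in the set high in Hoxb13 and 0.46 in the other. Hmox1, heme oxygenase, had 6.02, 20.5 and 65.5 CPM in TNBS and 12.4, 35.0 and 45.2 CPM in IBC (0.04 ± 0.47, and 0.42 without TNBS 5). Nqo1, the quinone reductase, had 10.7, 25.1 and 31.7 CPM and then 17.9, 20.2 and 74.1 CPM (0.56 ± 0.37), so neither classical target stood apart from the spread. Ephx1, microsomal epoxide hydrolase, had 12.4, 15.8 and 20.1 CPM and then 16.9, 18.5 and 32.0 CPM (0.40 ± 0.18), and Me1, malic enzyme, which also serves lipid synthesis, had 12.2, 20.9 and 56.6 CPM and then 23.0, 57.6 and 146 CPM (1.13 ± 0.53). In both, all 6 IBC libraries lay above the TNBS median. Without IBC 2 these differences were 0.24 and 0.73, and without IBC 5 that of Nqo1 was 0.19. Genes of xenobiotic metabolism were higher in 19 of 24 cases with 0 at such a p, and Ces2a, a carboxylesterase, had 20.8, 53.9 and 236 CPM and then 60.9, 77.4 and 444 CPM (1.07 ± 0.70, and 0.55 without IBC 2). Cyp1a1, the classical target of the aryl hydrocarbon receptor, was at most 1.20 CPM in these libraries.

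Cholesterol synthesis genes, which the factor SREBP2 drives together, were higher in 19 of 22 cases with 0 at an unadjusted p under 0.05. The score ran from -0.90 to 0.34 in TNBS and from -0.20 to 0.35 in IBC, with a difference of 0.31 (0.19 and 0.54 in the 2 sets). Insig1, the sterol sensor of the endoplasmic reticulum, had 32.3, 72.3 and 127 CPM and then 53.0, 139 and 166 CPM (0.80 ± 0.38). Lss and Dhcr7, enzymes late in the pathway, differed by 0.39 ± 0.24 and 0.34 ± 0.20. In each of these 3 genes 5 of 6 IBC libraries lay above the TNBS median.

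Lists of epithelial cells differed little. Score differences were 0.01 for ion and water transport of colonocytes, 0.02 for goblet cells, -0.04 for enteroendocrine cells, -0.11 for tuft cells, 0.11 for crypt stem cells and -0.04 for the cell cycle. Without TNBS 5 the difference was 0.08 for enteroendocrine cells and -0.0002 for crypt stem cells. Epithelial antimicrobial and injury genes were lower in 18 of 22 cases with 0 at an unadjusted p under 0.05. Their score differed by -0.26, and by 0.01 without TNBS 3. Myc, a Wnt target of the crypt, had 21.5, 41.8 and 68.0 CPM in TNBS and 25.1, 31.4 and 36.0 CPM in IBC (-0.49 ± 0.23, and -0.32 without TNBS 3), whereas Lgr5, the marker of crypt stem cells, differed by 0.87 ± 0.46. Krt18, a keratin of simple epithelium, differed by -0.47 ± 0.21 and Serpinb5, a serpin of the squamous list that colon also expresses, by -0.45 ± 0.21 (-0.26 without TNBS 5). Among genes of other lists, Erbb3, the neuregulin receptor held by the glia list and also found in epithelium, differed by 0.51 ± 0.21. It lay above the TNBS median in all 6 IBC libraries. Bbc3, the p53 target PUMA, differed by 0.66 ± 0.26, and Hpgds, a prostaglandin D synthase, by 0.54 ± 0.26. The scores of the cell cycle, enteroendocrine, tight junction, cytokine, NF-kB, glucocorticoid and glycolysis lists, which were close to 0, changed sign on the FPKM scale. Across the 51 lists, scores were higher in IBC for 33, and the difference exceeded the pooled SD between libraries in 9. These were the heat shock, unfolded protein response, smooth muscle, prostaglandin, clock, complement, MHC class II, mitochondrial mRNA and type 2 lists. The prostaglandin and leukotriene score differed by 0.21, with 0.30 and 0.02 in the sets high and low in Hoxb13, and 12 of 21 genes were higher. The sign was the same in both Hoxb13 sets for 21 lists and opposite for 30.

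**Figure D4:**
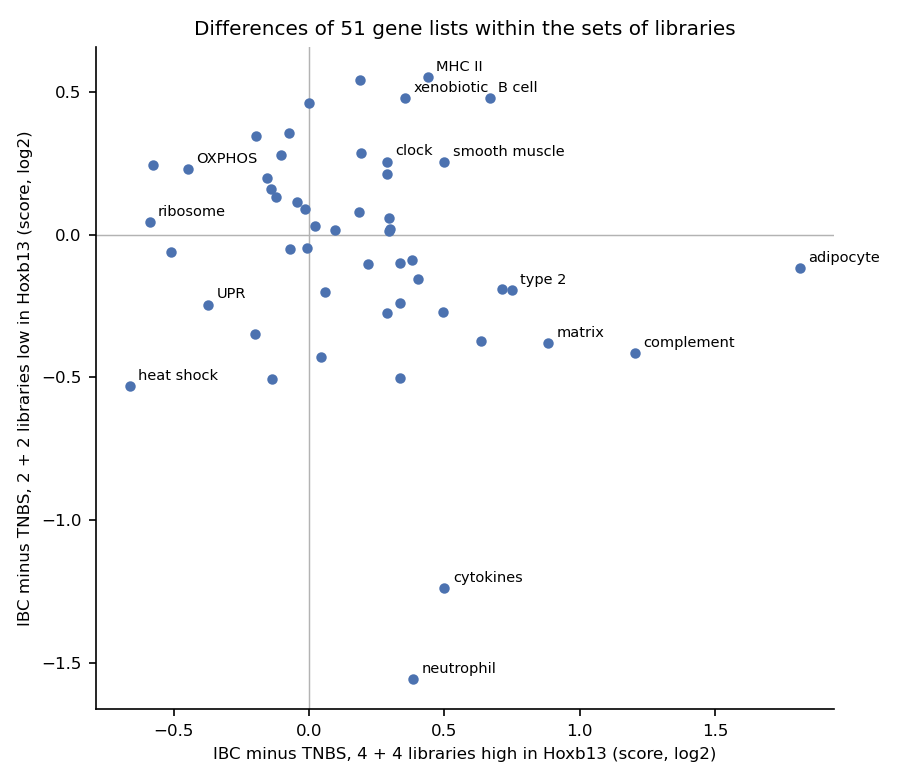
Each point is 1 of 51 gene lists, placed by its score difference (IBC minus TNBS, log2) among the 8 libraries high in Hoxb13 (horizontal) and among the 4 low in it (vertical). Heat shock lies low in both directions at -0.66 and -0.53, smooth muscle and clock lie in the upper right, and adipocyte, complement, matrix, cytokine and neutrophil lists lie below the horizontal line and to the right of the vertical line.

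Groups did not overlap for 31 genes (0.149% of those tested), of which 11 (0.0527%) were higher in IBC and 20 (0.0959%) lower. Among so many genes some would separate in this way without any difference between the groups. The count of 31 was not tested against that number, so a lack of overlap does not by itself mark a gene out. The named-gene rule takes 15 of the 31, 3 higher and 12 lower, and leaves out predicted genes and those under 1 CPM. Naaa, an amidase that degrades palmitoylethanolamide, an anti-inflammatory lipid, had 20.7, 24.1 and 28.2 CPM in TNBS and 28.7, 31.6 and 38.5 CPM in IBC (0.43 ± 0.12). Lrrc61, a leucine-rich repeat gene, had 4.73, 5.75 and 7.60 CPM and then 7.88, 8.74 and 10.1 CPM (0.55 ± 0.15). Myo18b, an unconventional myosin of muscle, had 0.223, 0.394 and 0.703 CPM and then 0.834, 1.16 and 1.55 CPM (1.40 ± 0.52).

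Lower in IBC, beside Dnajb1 and Xbp1, were genes of several basic functions. Mgat2, an enzyme of complex N-glycan synthesis in the Golgi, had 73.1, 91.1 and 131 CPM in TNBS and 57.3, 66.3 and 73.0 CPM in IBC (-0.52 ± 0.17). Uspl1, a SUMO protease of Cajal bodies, had 34.1, 36.8 and 54.6 CPM and then 25.3, 29.6 and 30.7 CPM (-0.51 ± 0.13). Gpbp1, a GC-rich promoter binding protein, had 93.6, 102 and 108 CPM and then 66.4, 80.3 and 91.1 CPM (-0.32 ± 0.10). Their gaps were narrow and their folds small. The pentose phosphate enzyme gene Rpe, the arginine methyltransferase gene Prmt6, the mitochondrial outer membrane gene Synj2bp and Eloa, a subunit of elongin, differed by -0.29, -0.28, -0.26 and -0.15. Osgin2, AW209491 and D11Wsu47e differed by -0.35, -0.55 and -0.38. Osgin2 and Eloa did not reach an unadjusted p under 0.05 (0.0524 and 0.105 by edgeR). For Rpe, Prmt6 and Synj2bp the highest of all 12 values was in TNBS 5.

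**Figure D5:**
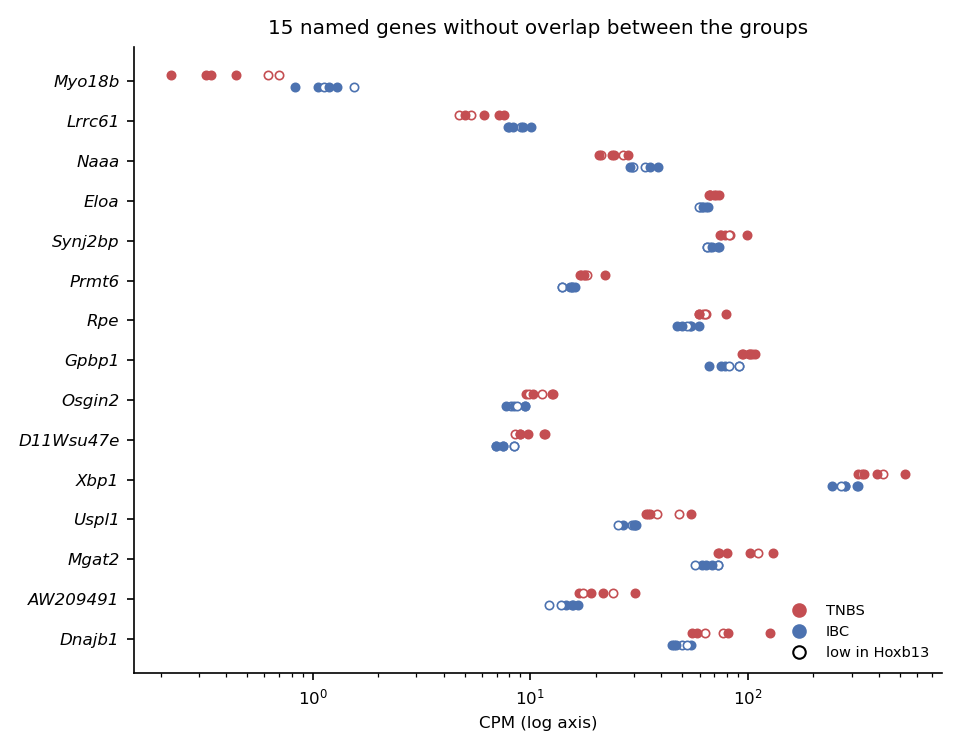
CPM on a log axis of the 15 named genes whose 6 TNBS (red) and 6 IBC (blue) libraries do not overlap, with a point for each library, open where Hoxb13 is low. In 3 genes at the top the IBC points lie to the right of all TNBS points, for Naaa at 28.7 to 38.5 CPM against 20.7 to 28.2 CPM, and in the other 12 they lie to the left.

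Some genes outside the rule had small unadjusted p-values and were picked with their values in view. Lpin1, a phosphatidate phosphatase of triglyceride synthesis, had 2.41, 5.56 and 9.87 CPM in TNBS, 7.49, 15.6 and 18.7 CPM in IBC and 11.99 CPM as the vector median (1.26 ± 0.31). Ptch1, the Hedgehog receptor and itself a Hedgehog target, had 17.6, 41.0 and 49.1 CPM and then 48.3, 65.2 and 89.2 CPM (0.85 ± 0.22). Crem, a cAMP-responsive transcription factor, was lower with 9.33, 16.9 and 37.5 CPM and then 8.56, 9.70 and 13.2 CPM (-0.90 ± 0.26, and -0.59 without TNBS 3). All 6 IBC libraries lay on the same side of the TNBS median for each of these, and each held its direction in both Hoxb13 sets. Disp3, a member of the dispatched family, had the smallest unadjusted p of the fit, with a count of 0 in all 6 TNBS libraries and counts of 0 to 11 in IBC. No fold is given for it, since it was at 0 in 1 group and the deposited counts do not all step by 1. It passed at an adjusted p of 0.0371 by DESeq2 and, without IBC 4, of 0.0468 by edgeR.

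Whether the IBC difference itself depended on the Hoxb13 set was tested as an interaction over all genes. edgeR called 2 genes (0.00959%) at an adjusted p under 0.05, and 935 (4.48%) had an unadjusted p under 0.05. Both are predicted genes chosen after their values were seen. Gm11430 had 0 counts in IBC 2 and IBC 5, 84 and 200 counts in TNBS 2 and TNBS 3, and 80 to 257 counts in the 8 libraries high in Hoxb13 (adjusted p = 0.01 by edgeR). Gm48551 had 0 counts in TNBS 2 and TNBS 3, 169 and 201 counts in IBC 2 and IBC 5, and 22 to 60 counts in the others (adjusted p = 0.01 by edgeR). Each rests on 2 libraries at 0 against 2 above it. The interaction had an adjusted p of 0.9 for Hspa1a and 0.944 for Dnajb1 by edgeR. Differences between the sets were tested gene by gene only, and those of list scores were not tested.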

How the data were processed

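RNA with a poly(A) tail was sequenced from mouse colon, 6 libraries a group. The authors deposited a table of read counts per gene and of FPKM (fragments per kilobase and 1e6 mapped fragments), the units per the file headers. Reads were trimmed with cutadapt 1.9, per the submitters' processing notes. The aligner, the counter and the build were not given in the sources used here. Low deposited counts step unevenly (19961 gene and library pairs at 4, 9977 at 3), so counts were also tested divided by 4.

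edgeR 4.0.16 (R 4.3.3) fitted all 18 libraries in a single quasi-likelihood model with filterByExpr and TMM scaling, and p-values were adjusted over the 20855 of 35405 genes kept. FPKM was tested with limma 3.58.1 on log2(FPKM + 1) and log2(FPKM + 0.1), and DESeq2 1.42.0 was an alternative. CPM and list scores (prior count 2) use TMM-scaled totals. The scripts were tested on simulated data.

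Named genes were those past the threshold, up to 15 a direction by fold change among non-overlapping genes with at least 1 CPM, up to 4 of each list by unadjusted p with at least 0.5 CPM, and 15 fixed genes. The members, lists and Hoxb13 threshold (10 CPM) were chosen with earlier results of these data known. Of 954 listed genes 951 were in the table, 943 by symbol and 8 by gene ID, and 907 were tested. Promoter sequences are from RefSeq (GRCm38.p6). Totals over the 18 libraries were 55.7 to 78.9 in units of 1e6 counts, and a gene at 0 counts may still be expressed below that depth.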

Additional observations from a re-analysis of the deposited data

Results flagged for a closer look

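In groups of 6, a library was set apart when its gap to the nearest other, as a share of the group's range, exceeded Dixon's critical value. This held in 25 of 342 checks, and 18 of them concern TNBS 5. The critical value flags about 1 in 20 groups of independent, normally distributed values, and the checks here are not independent. Ribosomal genes that vary together and their own list score are counted separately, and some genes were chosen after their values were seen. The count can therefore not be set against that rate. No cause was tested.

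In TNBS 5, ribosomal protein genes lay far above the other TNBS libraries, with 2116 CPM for Rpl6, 117 for Rps18, 2317 for Rps7, 2235 for Rpl10, 4141 for Rpl4, 5021 for Rpsa and 3259 for Rpl7, and with a list score of 1.63. So did mt-Atp8 at 3564 CPM and mt-Nd3 at 563 CPM, and, by less, Rpe at 79.5, Prmt6 at 22.04 and Synj2bp at 99.5 CPM. The same library lay below the others for Synpo2 at 19.3 CPM, H2-Ab1 at 22.3, Cd74 at 75.5 and Hspa5 at 457 CPM, and for the crypt stem cell and Wnt score at -0.63. Mitochondrial transcripts and ribosomal proteins were thus high where antigen presentation and BiP were low, in a single library.

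TNBS 3, which is low in Hoxb13, was high for C3 at 415 CPM, for the interferon response score at 1.63 and for the ribosome biogenesis score at 0.94. IBC 5 was high for Nop16 at 57.3 CPM and for the ribosome biogenesis score at 0.61, and low for Insig1 at 53.01 CPM. IBC 2 was high for the score of mitochondrial mRNAs at 0.26.

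The difference between IBC and TNBS depended on the Hoxb13 set, by the interaction term in edgeR, for Gm11430 (9.54 log2 units) and Gm48551 (-10.74 log2 units). Both values depend on libraries at a count of 0 and are not bounds.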

How the results depend on the processing

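Genes at an adjusted p under 0.05 were 2 by DESeq2, 0 to 1 with a library left out (1 without IBC 4), and 0 in the other edgeR and limma settings. Genes at an unadjusted p under 0.05 were 2018 with no filter on low counts, 522 in the 12 libraries alone, 2009 by limma voom with library weights, 406 in the low Hoxb13 set alone, and 462 (without IBC 1) to 2322 (without IBC 5) with a library left out. With the replicate block they were 887, with 0 at an adjusted p under 0.05, and the block changed no adjusted call. It moved the members at an unadjusted p under 0.05 from 7 to 1 for ribosomal proteins, from 3 to 5 for the unfolded protein response, from 9 to 8 for heat shock, from 1 to 3 for smooth muscle, from 2 to 3 for the clock, from 3 to 2 for type 2 genes and from 1 to 0 for mitochondrial mRNAs. Libraries of the same number in IBC and TNBS deviated together in 4 of 6 pairs (correlation over 0.1, median 0.219). In these pairs, of numbers 1, 2, 4 and 6, both libraries fell in the same Hoxb13 set. In numbers 3 and 5, with correlations of -0.34 and 0.01, the sets differed. Pairing and Hoxb13 set therefore cannot be told apart here. The labels state no pairing, and the main fit held no block. On log2(FPKM + 1) the genes at an unadjusted p under 0.05 were 865, of which 84% were higher in IBC against 43.4% by edgeR. Non-overlapping genes were 29 to 176 with a library left out, and interaction calls 2 to 7. All list scores recomputed under other settings moved by less than the spread between libraries. The difference itself exceeded the pooled SD between libraries in only 9 of 51 lists, so a score can turn within that spread. With a library left out, the difference ran from -0.61 to 0.24 for neutrophil markers and from -0.38 to 0.17 for cytokines. It ran from -0.52 to -0.10 for ribosomal proteins and from -0.71 to -0.48 for heat shock.

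Log2 fold changes that turned were Il6 with the replicate block (0.27), Il1b with the Hoxb13 set as covariate (-0.044) and, by voom, Chil3 (0.10), S100a8 (0.48), Lcn2 (0.27), Il6 (0.48), Hoxb13 (1.00), S100a9 (0.84) and Gpr84 (0.75). With a library left out, ranges that crossed 0 were -3.23 to 0.10 for S100a8, -2.17 to 0.98 for S100a9, -1.18 to 0.32 for Il6, -0.96 to 0.18 for Hoxb13, -0.22 to 0.65 for Il1b, -0.17 to 0.42 for Hmox1, -0.14 to 1.48 for Adipoq and -0.47 to 1.499 for Cfd. The cause was not tested. Gpr84 and Il6 had medians under 1 CPM and standard errors over 1 log2 unit.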
